A study of Mus musculus with 30 samples.

Results

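Krt1, Krt10, Krt2 and Krt77 encode the keratins of the suprabasal layers of the epidermis, and their levels were followed in preputial glands of mice fed benzo[a]pyrene (BaP), a polycyclic aromatic hydrocarbon that is carcinogenic once metabolised. The 4 genes were chosen by measured values, namely the higher Krt1 and Krt10 values in double knockout arrays. Each of the 4 was measured by 1 probe set, among 18784 genes in all. The study asked how genotypes and weeks of exposure differ while squamous cell carcinoma forms in the duct of this gland. The tissue label is preputial gland duct, while the protocols describe whole glands freed of neighbouring tissue. All 30 arrays came from male mice labelled with the B6 background, with 2 mice in each of 15 groups. The genotypes were a double knockout of Cyp1a1 and Cyp1b1 (DKO), a knockout of Cyp1a1 alone (Cyp1a1 KO) and wild type (WT), so the allele that both knockouts share is the loss of Cyp1a1. Mice started on the BaP diet at 6 weeks of age, at about 12.5 mg/kg/day, and were sampled at weeks 0, 4, 8, 12 and 16. Week 0 mice were the only ones without BaP and the youngest, so exposure and age cannot be told apart.

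Keratins are intermediate filament proteins that assemble from 1 type I and 1 type II chain. In interfollicular epidermis, basal cells carry Krt5 with Krt14. Cells that leave the basal layer switch to Krt1 (type II) with Krt10 (type I). Krt2, a type II chain, is added later in the upper spinous and granular layers, and Krt77 is a type II chain close to Krt1 that is also found in suprabasal epidermis and sweat ducts. The preputial gland is a modified sebaceous gland whose lobules are made of lipid-laden sebocytes and whose duct is lined by stratified squamous epithelium.

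Values are log2 intensities, on which 1 unit is a 2-fold difference. Detection calls were not used here. Arrays differed in their range. In 21 arrays the standard deviation (SD) of all log2 values was 1.70 to 2.08. In the other 9, called low-range arrays here, it was 1.15 to 1.42. The low-range arrays were 8 of the 10 labelled DKO (all but week 0 replicate 1 and week 12 replicate 2) and Cyp1a1 KO week 12 replicate 2. The targeted genes did not check the labels. Cyp1a1 averaged 4.81 in arrays labelled DKO, 4.19 in Cyp1a1 KO and 4.46 in WT over weeks 4 to 16. Cyp1b1 averaged 10.24 in arrays labelled DKO, 8.47 in Cyp1a1 KO and 6.51 in WT, and was therefore highest in the genotype in which it was targeted. The position of these probe sets relative to the deleted parts was not used here, and the genotype is therefore written as the label throughout. In whole glands, fewer cells of a type and less RNA per cell cannot be told apart.

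Krt1 was higher in all arrays labelled DKO from week 8 on than in every other array, and 1 DKO array of week 4 lay between. In the arrays labelled DKO it stood at 4.47 and 5.37 at week 0, 4.93 and 6.91 at week 4, 9.72 and 11.02 at week 8, 10.99 and 10.06 at week 12, and 10.93 and 10.22 at week 16. The 2 mice of week 4 lay on different sides of the highest week 0 value, and the 6 arrays of weeks 8 to 16 did not overlap with any earlier array. Krt1 in the 10 Cyp1a1 KO arrays was 3.78 at the lowest, 4.28 at the median and 4.77 at the highest. In the 10 WT arrays these values were 3.67, 3.79 and 4.26. Neither of these genotypes reached the highest DKO week 0 array at any week.

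In order of group means, Krt1 was highest in the DKO groups of week 16 (10.57 ± 0.50, SD, n = 2), week 12 (10.52 ± 0.65) and week 8 (10.37 ± 0.92), which overlapped with one another. DKO week 4 followed at 5.92 ± 1.40, lower by 4.45 than week 8, and then DKO week 0 at 4.92 ± 0.64. The Cyp1a1 KO groups lay between 4.54 ± 0.32 at week 12 and 3.96 ± 0.25 at week 8. The WT groups lay between 4.02 ± 0.34 at week 16 and 3.70 ± 0.04 at week 0. From DKO week 4 downward each group overlapped with the next in order, except WT week 4 (3.77 ± 0.03) with WT week 0.

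Krt10, the type I partner of Krt1, was higher in the arrays labelled DKO from week 4 on. In those arrays it stood at 7.64 and 6.74 at week 0, 8.16 and 8.43 at week 4, 10.20 and 10.86 at week 8, 11.29 and 10.45 at week 12, and 10.78 and 10.31 at week 16. All 8 DKO arrays on BaP exceeded both DKO week 0 arrays. Krt10 in the 10 Cyp1a1 KO arrays was 6.72 at the lowest, 6.83 at the median and 7.14 at the highest. In the 10 WT arrays it was 6.05, 6.91 and 7.53. WT was the more spread of these genotypes for this gene, with a group mean of 7.31 ± 0.31 at week 4 and 6.24 ± 0.07 at week 8 (SD, n = 2 each), which did not overlap.

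The order of Krt10 group means ran from DKO week 12 (10.87 ± 0.59, SD, n = 2) over DKO week 16 (10.54 ± 0.33) and week 8 (10.53 ± 0.47), which overlapped, to DKO week 4 (8.30 ± 0.19). The gap from week 8 down to week 4 was 2.23. DKO week 0, at 7.19 ± 0.64, was not next but lay below WT week 4. Every group from WT week 4 downward overlapped with its neighbour in the order. Krt1 and Krt10 therefore had their widest gap between neighbouring groups at the same place, between week 8 and week 4 of the arrays labelled DKO.

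**Figure D1:**
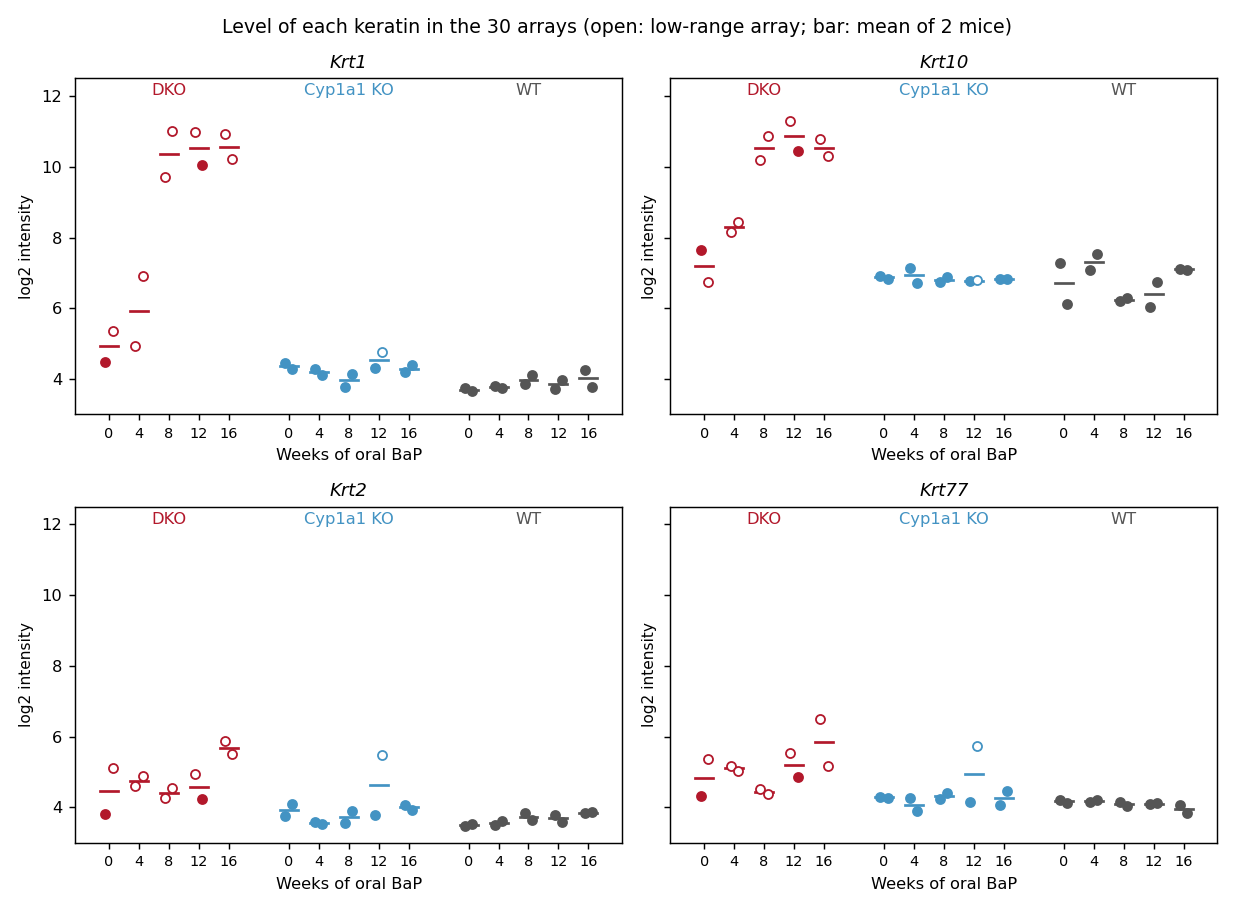
Log2 intensity (vertical axis) of Krt1, Krt10, Krt2 and Krt77 in each of the 30 arrays, by weeks of oral BaP (horizontal axis) within DKO, Cyp1a1 KO and WT. Points are single mice, open where the array is low-range and filled where it is normal-range, and bars are means of 2 mice. Krt1 and Krt10 in the 6 DKO arrays of weeks 8 to 16 lie above all other arrays, while Krt2 and Krt77 stay near their DKO week 0 values until week 16.

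Krt2 and Krt77 did not share this course. Krt2 in the arrays labelled DKO was 3.82 and 5.11 at week 0, 4.61 and 4.90 at week 4, 4.26 and 4.53 at week 8, 4.95 and 4.22 at week 12, and 5.88 and 5.50 at week 16. The week 16 arrays were the highest, and those of weeks 4, 8 and 12 lay between the 2 arrays of week 0. Krt2 in Cyp1a1 KO was 3.52 at the lowest, 3.83 at the median and 5.49 at the highest. In WT it was 3.48, 3.63 and 3.86. The highest Cyp1a1 KO value belonged to the low-range array of week 12.

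Krt77 in the arrays labelled DKO was 4.31 and 5.37 at week 0, 5.17 and 5.03 at week 4, 4.52 and 4.37 at week 8, 5.55 and 4.87 at week 12, and 6.50 and 5.17 at week 16. Only week 12 replicate 1 and week 16 replicate 1 exceeded the higher week 0 array. Krt77 in Cyp1a1 KO was 3.88 at the lowest, 4.27 at the median and 5.73 at the highest. In WT it was 3.83, 4.11 and 4.22. The highest Cyp1a1 KO value was again that of week 12 replicate 2. In order of group means, Krt2 was highest in DKO week 16 (5.69 ± 0.27, SD, n = 2), which did not overlap with the next, DKO week 4 (4.75 ± 0.21). Krt77 was highest in DKO week 16 too (5.84 ± 0.94), which overlapped with the next, DKO week 12 (5.21 ± 0.48).

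As differences of means, with no test because these arrays chose the genes, DKO weeks 4 to 16 minus DKO week 0 came to 4.43 ± 0.39 for Krt1 and 2.87 ± 0.31 for Krt10 (± standard error of the model, SE; 8 and 2 arrays). The same difference was 0.39 ± 0.34 for Krt2 and 0.30 ± 0.35 for Krt77, about the size of its error. At week 16 alone it was 5.65 ± 0.49 for Krt1, 3.35 ± 0.39 for Krt10, 1.22 ± 0.43 for Krt2 and 1.00 ± 0.44 for Krt77. With 1 array left out at a time, the week 16 difference ran from 0.58 to 1.87 for Krt2 and from 0.33 to 1.66 for Krt77. Of all genes, 0.974% were called in DKO weeks 4 to 16 against week 0, where called means an adjusted p under 0.05 in limma after Benjamini-Hochberg adjustment over all genes. The differences for Krt2 and Krt77 turned with the week 0 array used: they were -0.26 and -0.22 against replicate 2, which is low-range, and 1.03 and 0.83 against replicate 1.

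Over weeks 4 to 16 the arrays labelled DKO exceeded WT by 5.44 for Krt1, 3.30 for Krt10, 1.15 for Krt2 and 1.07 for Krt77 (8 arrays each). Of all genes, 71.5% were called in that comparison. The corresponding differences from Cyp1a1 KO were 5.10, 3.22, 0.88 and 0.75, with arrays overlapping for Krt2 and Krt77. There 58.9% of all genes were called. These comparisons share the DKO arrays, and so does the choice of the genes. The label descriptions number the arrays, and all 8 DKO arrays on BaP, DKO week 0 replicate 2 and Cyp1a1 KO week 12 replicate 2 have numbers from 22 to 33, while the other 20 have numbers from 1 to 20. What the numbers stand for is not given in the sources used here. Only DKO week 0 (20 and 31) and Cyp1a1 KO week 12 (17 and 30) hold numbers of both ranges, so a block on number is estimated from these groups alone. In each of them the higher-numbered array is also the low-range one, so number and array range cannot be told apart there. With these number ranges as a block, the differences from WT were 4.77 for Krt1, 3.74 for Krt10, -0.35 for Krt2 and -0.25 for Krt77, so those of Krt2 and Krt77 turned. The differences from Cyp1a1 KO turned likewise for Krt2 (-0.43) and Krt77 (-0.40) and stayed positive for Krt1 (4.51) and Krt10 (3.61). Under the same block the week 16 differences from week 0 were 0.47 for Krt2 and 0.34 for Krt77. Under that block 151 genes were called against WT and 101 against Cyp1a1 KO. At week 0 the arrays labelled DKO lay above WT by 1.22 for Krt1, 0.49 for Krt10, 0.96 for Krt2 and 0.68 for Krt77, with SEs of 0.39 to 0.49 (n = 2 each). The arrays overlapped for Krt10, whose difference ran from -0.09 to 1.07 with 1 array left out. Those of Krt2 and Krt77 ran from 0.32 to 1.61 and from 0.15 to 1.21, and were 0.21 and 0.02 with the number block.

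To show what lies directly before the start of these genes, the 250 bases upstream of the start are given for the 3 that the RefSeq promoter table held, in build GRCm38.p6. They are Krt10 at chr11:99389365-99389614, Krt2 at chr15:101818170-101818419 and Krt77 at chr15:101869706-101869955, all on the minus strand and printed 5′ to 3′ along the gene, ending at the base before the start. Capitals mark matches to the TATA-box letters TATATA or TATAAA.
Krt10: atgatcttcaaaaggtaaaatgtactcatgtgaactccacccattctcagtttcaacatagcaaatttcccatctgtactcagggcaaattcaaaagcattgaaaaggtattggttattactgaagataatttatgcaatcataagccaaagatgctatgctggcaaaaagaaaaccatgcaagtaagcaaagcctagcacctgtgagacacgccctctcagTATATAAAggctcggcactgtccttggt
Krt2: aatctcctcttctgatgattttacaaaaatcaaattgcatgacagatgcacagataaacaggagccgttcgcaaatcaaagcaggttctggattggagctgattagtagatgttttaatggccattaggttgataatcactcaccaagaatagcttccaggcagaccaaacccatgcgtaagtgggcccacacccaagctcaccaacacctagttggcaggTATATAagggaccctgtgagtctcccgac
Krt77: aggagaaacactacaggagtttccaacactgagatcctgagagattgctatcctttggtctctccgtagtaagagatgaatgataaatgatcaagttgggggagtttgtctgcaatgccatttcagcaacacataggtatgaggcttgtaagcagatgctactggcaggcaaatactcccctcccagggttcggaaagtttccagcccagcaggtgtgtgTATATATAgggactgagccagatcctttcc

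Both strands of these windows were searched for fixed letters. TATATA was found in all 3, with the first match beginning 28 bases before the start in Krt10, 29 in Krt2 and 30 in Krt77, and 5.25% of 32851 promoter windows of this length held it. TATAAA, which overlaps with TATATA there, was found in Krt10 alone of the 3 and in 12.4% of all windows. GCGTG, the core of the response element of the aryl hydrocarbon receptor, a transcription factor that BaP activates, was found once in Krt10, 41 bases before the start, and in 28.2% of all windows. The C/EBP letters TTGCNNAA were in Krt10 and Krt77 (9.56% of windows) and the KLF letters CACCC in Krt10 and Krt2 (52.0%). The AP-1 letters TGANTCA (6.75%) and the AP-2 letters GCCNNNGGC (13.7%) matched in none of the 3.

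Each gene was also ranked within its own array, as the percentage of genes below it. Ranks depend on the probe set as well as on RNA, so each gene is compared only with itself. The percentile of Krt1 was 98.2 to 99.7 in the 6 DKO arrays of weeks 8 to 16, against 28.9 and 46.5 in DKO week 0. It was 17.5 to 27.7 in the 20 Cyp1a1 KO and WT arrays. The percentile of Krt10 was 95.5 to 99.7 in the 8 DKO arrays on BaP, 85.8 and 87.2 in DKO week 0, and 64.001 to 85.8 in the other genotypes. For both genes the ranks of DKO weeks 8 to 16 did not overlap with those of any other group.

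**Figure D2:**
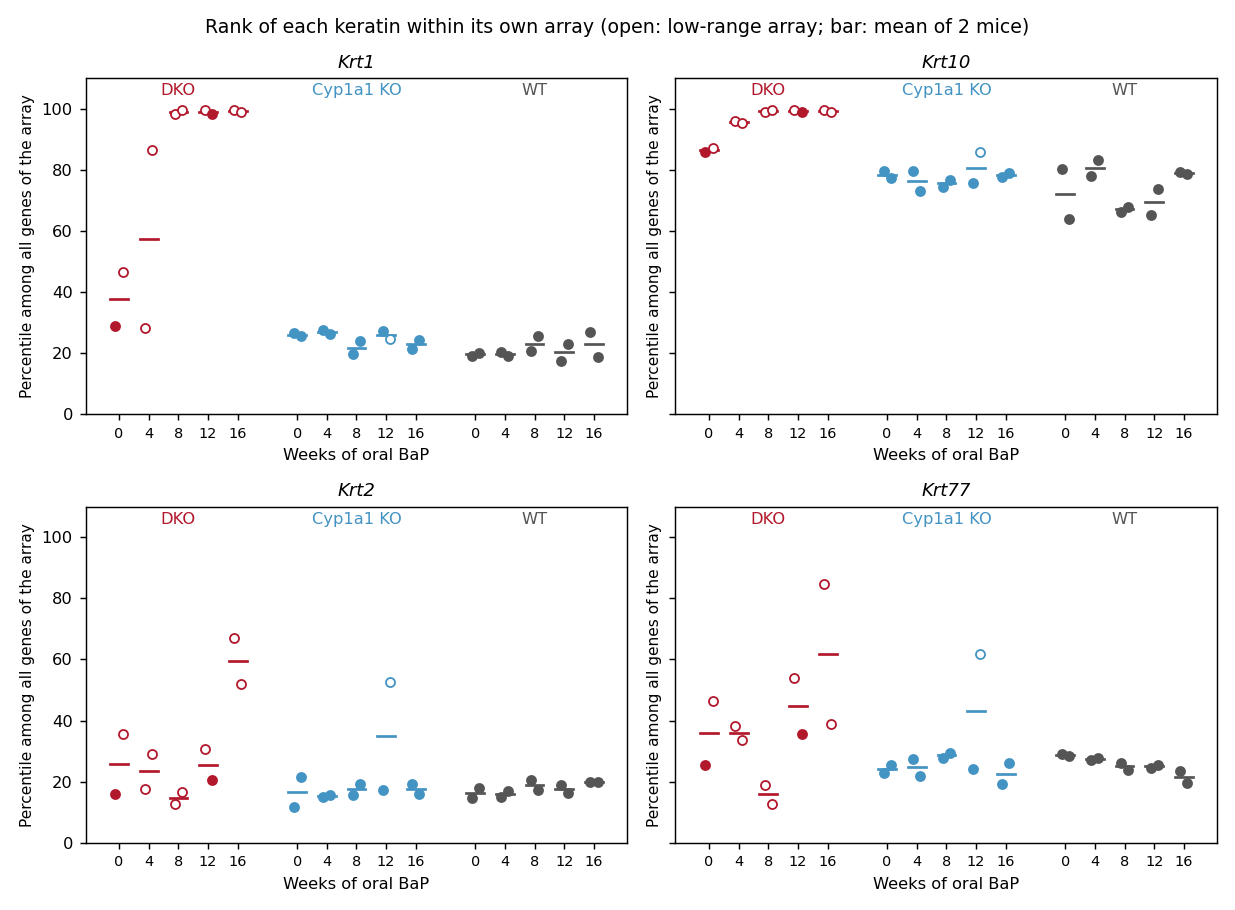
Percentile of Krt1, Krt10, Krt2 and Krt77 among all genes of the same array (vertical axis) by weeks of oral BaP (horizontal axis) within DKO, Cyp1a1 KO and WT. Points are single mice, open where the array is low-range, and bars are means of 2 mice. Krt1 is at 98.2 or above in DKO weeks 8 to 16 and at 27.7 or below in Cyp1a1 KO and WT, while Krt2 and Krt77 range from 12.6 to 67.02 and from 12.6 to 84.6 in the 8 DKO arrays on BaP.

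Ranks of Krt2 and Krt77 overlapped with week 0. The percentile of Krt2 was 12.6 to 67.02 in the 8 DKO arrays on BaP (median 24.8), against 16.1 and 35.4 in DKO week 0. That of Krt77 was 12.6 to 84.6 (median 36.8), against 25.3 and 46.6. Only the week 16 arrays ranked above both week 0 arrays for Krt2. Ranks also differed with the range of the array. In the low-range array of Cyp1a1 KO week 12, Krt2 was at 52.7 and Krt77 at 61.8, against at most 21.6 and 29.4 in the normal-range Cyp1a1 KO and WT arrays.

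The level of Krt2 followed the range of the array. Krt2 was 4.26 to 5.88 in the 9 low-range arrays and 3.48 to 4.22 in the 21 normal-range arrays, with no overlap. Krt77 was 4.37 to 6.50 in low-range arrays and 3.83 to 4.87 in normal-range arrays. In the same contrast, means of low-range minus normal-range arrays were 1.27 for Krt2 and 1.07 for Krt77. The lowest 25% of genes, picked by their means in normal-range arrays, differed by a median of 1.11, and 99.8% of these 4696 genes were higher in low-range arrays. That direction was largely set in advance, since low-range arrays were defined by a smaller SD and the genes were picked as low in the others. The value is a description and no independent yardstick. The part of range in the Krt2 and Krt77 differences from WT and Cyp1a1 KO was not tested. The contrast was larger for Krt1 (3.98) and Krt10 (2.27).

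Normal-range arrays labelled DKO gave 1 pair, week 12 replicate 2 and week 0 replicate 1. Krt1 was 10.06 in the week 12 mouse, against 4.47 in the week 0 mouse. Krt10 was 10.45, against 7.64. Krt2 was 4.22, against 3.82, and Krt77 was 4.87, against 4.31. The differences in this pair, 1 array against 1, were 5.59 for Krt1 and 2.81 for Krt10. The pair lies across the split in label numbers (27 against 20), and the median correlation of the week 12 array with normal-range arrays, 0.911, was the lowest of the normal-range arrays. Array Cyp1a1 KO week 12 replicate 2 gave the opposite case, low-range without DKO. Its Krt2 (5.49), Krt77 (5.73) and Krt1 (4.77) were the highest of the 20 Cyp1a1 KO and WT arrays, while its Krt10, at 6.79, lay within the range of the other Cyp1a1 KO arrays.

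**Figure D3:**
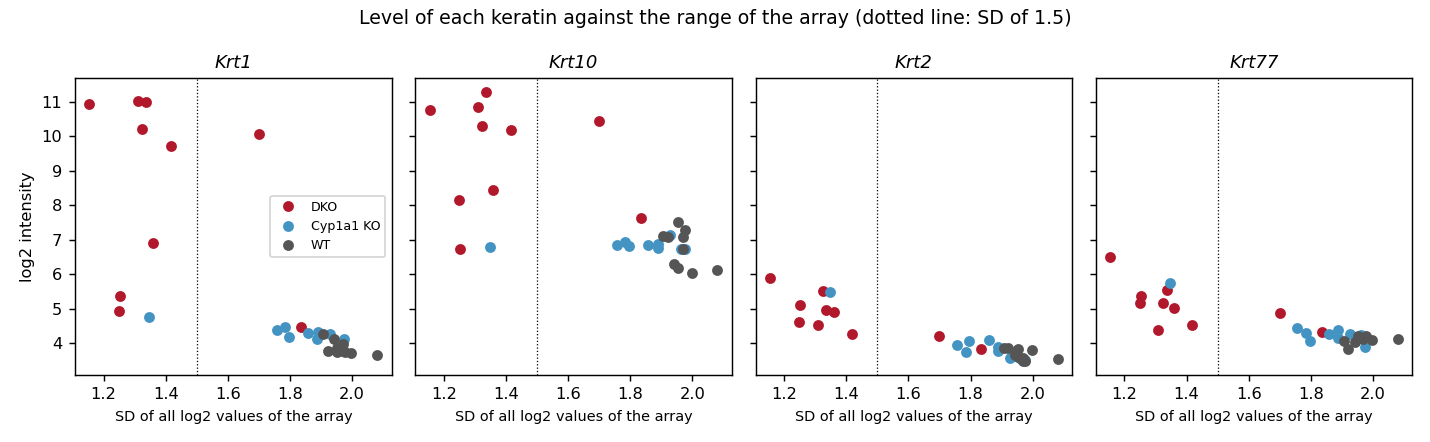
Log2 intensity of each keratin (vertical axis) against the SD of all log2 values of the array (horizontal axis), with 1 point per array coloured by DKO, Cyp1a1 KO or WT and a dotted line at an SD of 1.5. Krt2 is 4.26 or above in all 9 low-range arrays and 4.22 or below in the 21 others, while Krt1 and Krt10 are also high, at 10.06 and 10.45, in the normal-range DKO array of week 12.

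Comparisons without arrays labelled DKO, which the choice of genes did not use, were tested in limma. Within Cyp1a1 KO, none of the 4 keratins was called over weeks 4 to 16 against week 0, beside 0% of all genes (258 genes at an unadjusted p under 0.05). Krt1 changed by -0.13 there, with a 95% interval of -0.94 to 0.68, and Krt10 by -0.05 (-0.68 to 0.59). Krt2 and Krt77 differed by 0.06 and 0.12. Within WT none was called either, beside 0% of all genes (154 at an unadjusted p under 0.05). The WT difference was 0.20 for Krt1 (-0.61 to 1.02), 0.06 for Krt10 (-0.58 to 0.70), 0.20 for Krt2 and -0.09 for Krt77. The model shares 1 spread per gene over all groups, including the more variable arrays labelled DKO.

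The change in Cyp1a1 KO minus the change in WT was -0.33 ± 0.55 for Krt1, -0.10 ± 0.44 for Krt10, -0.14 ± 0.48 for Krt2 and 0.20 ± 0.49 for Krt77 (SE). None was called, beside 0% of all genes (101 at an unadjusted p under 0.05). The intervals, for example -1.48 to 0.82 for Krt1, leave room for differences of more than 1 log2 unit in these genotypes.

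Before BaP, Krt1 stood at 4.45 and 4.29 in Cyp1a1 KO and at 3.73 and 3.67 in WT. The difference was 0.67 ± 0.49 (limma, adjusted p = 0.789). The other differences were 0.41 for Krt2, 0.11 for Krt77 and 0.18 for Krt10, and the Krt10 arrays overlapped. None of the 4 was called, beside 0% of all genes (1292 at an unadjusted p under 0.05). In a fit without the 9 low-range arrays, which lowers the shared spread, the same Krt1 difference had an adjusted p of 0.0317 and 2926 genes were called. Over weeks 4 to 16 the difference between Cyp1a1 KO and WT was 0.34 ± 0.25 for Krt1 (adjusted p = 0.545), 0.08 for Krt10, 0.27 for Krt2 and 0.32 for Krt77. None of these 4 was called in limma, beside 1.5% of all genes (2349 at an unadjusted p under 0.05).

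Late and early weeks of BaP, weeks 12 and 16 against weeks 4 and 8, were set against each other within each genotype. In the arrays labelled DKO the values are a description with no test, because these arrays chose the genes. Krt1 averaged 10.55 late and 8.15 early, a difference of 2.40 ± 0.35 (SE). Krt10 averaged 10.71 late and 9.41 early, a difference of 1.30 ± 0.28. Krt2 differed by 0.56 ± 0.30 and Krt77 by 0.75 ± 0.31. The late and early arrays overlapped for all 4 genes. Of all genes, 0.628% were called in this comparison.

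The late differences of Krt1 and Krt10 lay between week 4 and the later weeks. With week 8 as the only early week, an alternative chosen after seeing the data, Krt1 and Krt10 each differed by 0.18. With week 4 as the only early week the differences were 4.63 for Krt1 and 2.41 for Krt10.

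In Cyp1a1 KO the late minus early difference was 0.34 for Krt1, -0.06 for Krt10, 0.68 ± 0.30 for Krt2 (adjusted p = 0.348) and 0.41 for Krt77. None was called in limma, beside 0.00532% of all genes (2689 at an unadjusted p under 0.05). The Krt2 value rested on the low-range array of week 12. It was 0.25 without that array and 1.11 without the other array of that week, and each of these fits left 1 array in week 12. In WT the 4 differences lay between -0.11 and 0.13, and none was called, beside 0.00532% of all genes (153 at an unadjusted p under 0.05).

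**Figure D4:**
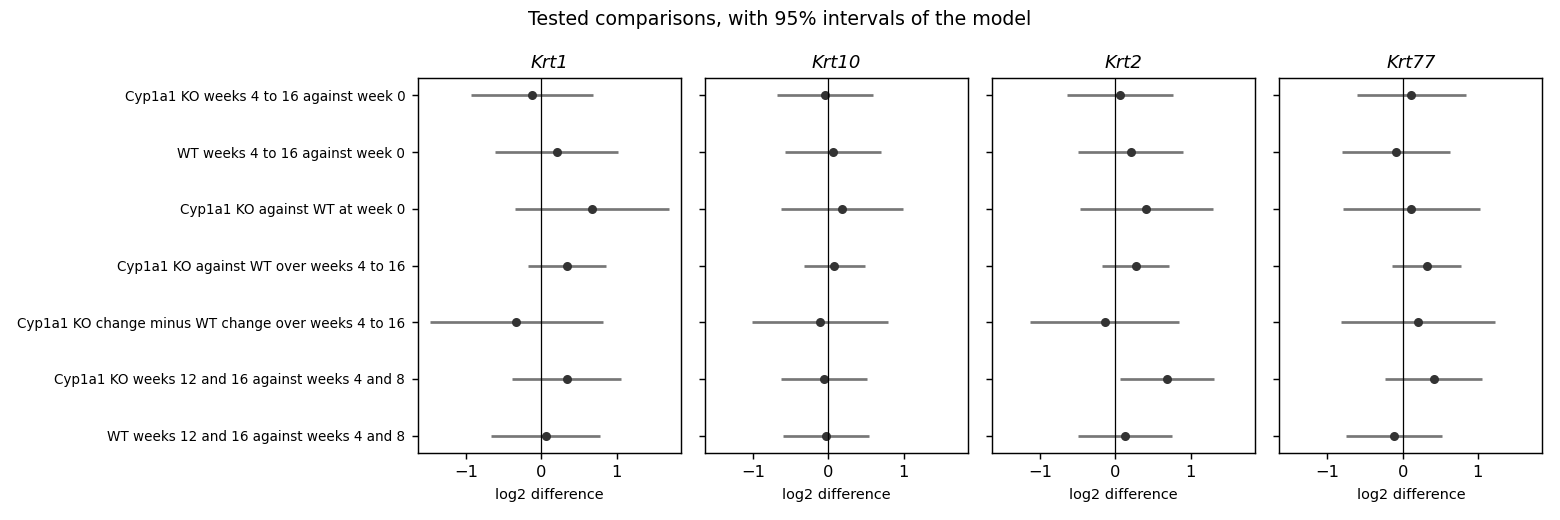
Log2 differences (horizontal axes, point estimate and 95% interval of the limma model) of each keratin in the 7 tested comparisons, all among Cyp1a1 KO and WT arrays, listed down the vertical axis. None was called, and the largest difference was 0.68, for Krt2 in Cyp1a1 KO weeks 12 and 16 against weeks 4 and 8.

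Among the 49 keratin genes measured, the members took different places in the difference of DKO weeks 4 to 16 from DKO week 0. Krt1 was in place 1 at 4.43, Krt6b in place 2 at 3.64, Krt10 in place 3 at 2.87 and Krt6a in place 4 at 1.63. Krt2 was in place 23 and Krt77 in place 28. The high places of Krt1 and Krt10 are a description and no test, because they were chosen for their values in these arrays. Krt6b and Krt6a encode near-identical stress keratins of wounded and hyperproliferative epithelium, so their probe sets may share signal. The basal keratins Krt5 and Krt14 differed by -0.10 and 0.03 there and were not called. Krt15, also a keratin of basal cells, was in place 48 at -0.75 ± 0.48 (SE) and was not called either. Krt5 and Krt14 are named as the defining keratins of the basal layer, and all 3 were chosen after their values were seen.

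**Figure D5:**
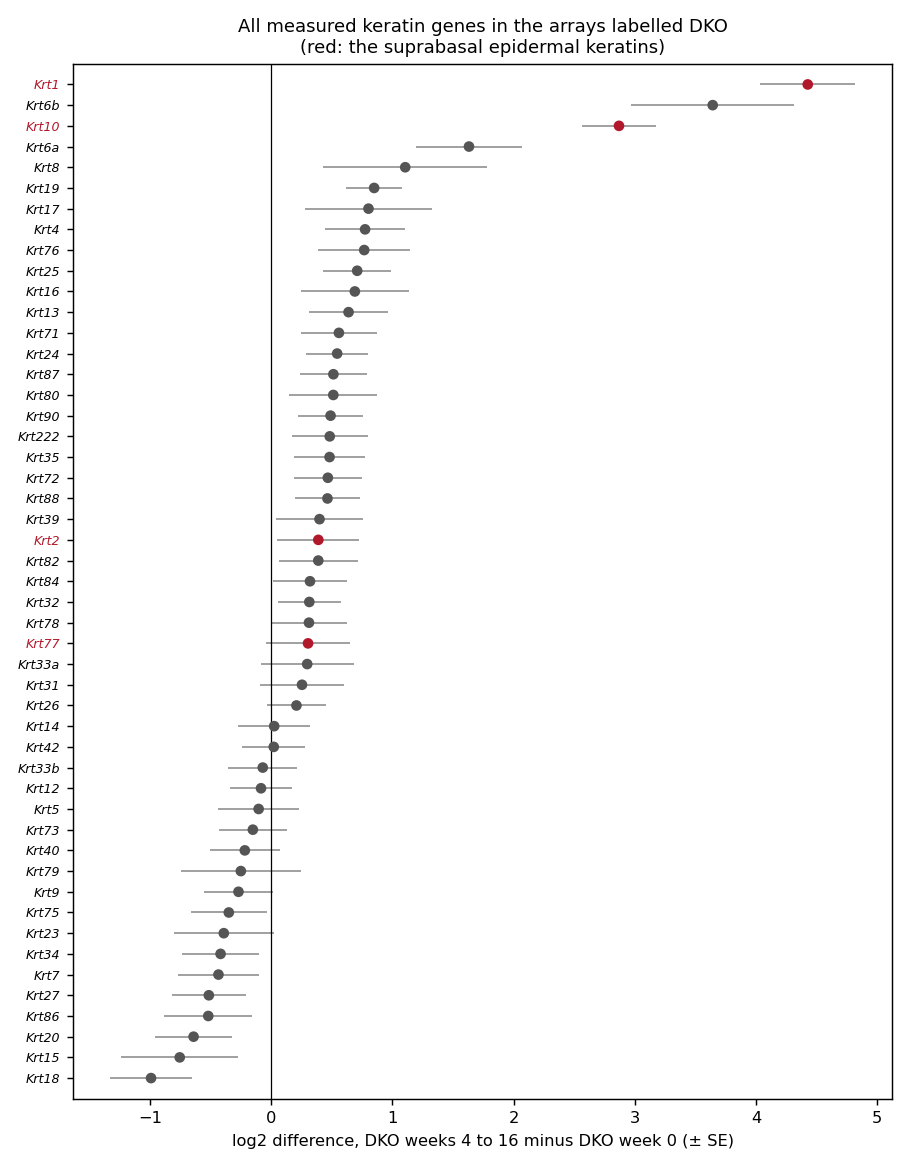
Log2 difference of DKO weeks 4 to 16 minus DKO week 0 (horizontal axis, ± SE of the model) for the 49 measured keratin genes, ordered from highest to lowest down the page, with the 4 suprabasal keratins in red. Krt1 (4.43) and Krt10 (2.87), chosen for their values in DKO arrays, stand at places 1 and 3, and Krt2 (0.39) and Krt77 (0.30) at places 23 and 28.

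The genes next to Krt1 and Krt10 on the chromosome did not share their differences from week 0. In assembly GRCm38.p6, Krt1 lies between Krt2 and Krt77 on chromosome 15, with Krt73 and Krt76 beyond them, and Krt10 lies between Krt27 and Krt12 on chromosome 11. In DKO weeks 4 to 16 against week 0, Krt73 differed by -0.15, Krt76 by 0.77, Krt72 by 0.47 and Krt4 by 0.78. On the Krt10 side Krt27 differed by -0.51, Krt26 by 0.21, Krt12 by -0.08 and Krt20 by -0.64. None of these 8 neighbours was called.

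Other genes of the epithelium were read from lists compiled by function. In DKO weeks 4 to 16 against week 0, where 0.974% of all genes were called, 1 of 22 other epithelial keratins was called, Krt6b, at 7.06 in DKO on BaP and 3.42 in DKO week 0 (adjusted p = 0.0112). The list's median was 0.41, and that of all genes 0.04. Of 20 spinous and granular layer genes, which encode envelope and junction proteins and their processing enzymes, 3 rose and 17 were not called (median 0.40). Rptn (repetin), a cornified envelope precursor, averaged 9.90 in DKO on BaP and 6.15 in DKO week 0 (3.76 ± 0.60, adjusted p = 0.00315). Cnfn (cornifelin) rose by 1.78 ± 0.30 and Klk7, a protease of corneodesmosomes, by 1.51 ± 0.34. Dsc1, a desmosomal cadherin of the suprabasal layers, differed by 1.85 ± 0.49 and was not called (adjusted p = 0.0662).

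Of 20 differentiation regulators none was called in the same comparison (median -0.12). Grhl3, a factor of the barrier programme, differed by 0.73 (adjusted p = 0.188), Notch3 by 0.85, and Klf4 by 0.32. None of 15 hair and root sheath keratins was called (median 0.30, range -0.52 to 0.71). These calls also used the week 0 arrays labelled DKO, of which 1 was low-range, and with array weights 2 genes in all were called in this comparison.

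In DKO weeks 12 and 16 against weeks 4 and 8, where 0.628% of all genes were called, Krt6b rose by 2.91 ± 0.60 (adjusted p = 0.0292), the only one of the 22 other epithelial keratins called. None of the 20 spinous and granular genes was called, and their median was -0.12. Flg2, a filaggrin-type protein of the granular layer, averaged 7.82 late and 9.48 early (adjusted p = 0.138), and Ivl (involucrin) 8.51 late and 9.49 early (adjusted p = 0.113). Between Cyp1a1 KO and WT over weeks 4 to 16, where 1.5% of all genes were called, 1 of these 20 genes was called. It was Klk7, at 9.02 in Cyp1a1 KO and 9.90 in WT (adjusted p = 0.0417).

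Markers of other cell types were read beside Krt1 and Krt10. The mean of 15 sebocyte markers, such as the wax synthase gene Awat2 and the lipid droplet gene Plin2, was 5.85 to 7.15 in DKO on BaP. It was 7.03 to 7.52 in DKO week 0 and 7.88 to 8.09 in WT. In Cyp1a1 KO it was 7.30 to 7.96 over weeks 4 to 16, which overlapped with WT, and 7.47 to 7.73 at week 0. The DKO arrays on BaP are low-range except week 12 replicate 2, and the part of range in this mean was not tested. In WT, 12 of the 15 lay above the array median, and in DKO on BaP 6 to 11 did. None of the 15 was called in DKO weeks 4 to 16 against week 0 (median -0.72). Awat2 was 5.04 to 10.07 in DKO on BaP, against 9.55 and 10.68 in DKO week 0. DKO on BaP and DKO week 0 thus overlapped in this mean. Of that list, 4 genes (Dgat2, Elovl3, Mc5r and Acsbg1) were called in Cyp1a1 KO against WT over weeks 4 to 16, lower by 0.63 to 1.12. Of all genes, 1.5% were called there, 282 in number, of which 261 were lower. The Cyp1a1 KO arrays include the low-range array of week 12.

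The mean of 10 neutrophil markers was 5.07 to 6.72 in DKO on BaP and 4.98 to 5.01 in DKO week 0, without overlap. Of these, S100a8, S100a9 and Cxcr2 rose, by 4.63, 3.83 and 1.81, in DKO weeks 4 to 16 against week 0, where 0.974% of all genes were called. S100a8 and S100a9 encode calprotectin, which stressed keratinocytes also make. Of the granule genes on that list, Mpo was 0.78 higher and not called (adjusted p = 0.0947). Melanocyte markers (4.45 to 5.67 in DKO on BaP, 4.47 to 5.07 in DKO week 0), skeletal muscle markers (5.01 to 5.73, against 4.85 to 5.44) and hair keratins (4.72 to 5.35, against 4.68 to 5.15) overlapped between these groups and held no called gene. Nor was any of 7 macrophage, 6 endothelial, 6 fat cell and 2 red cell markers called in DKO weeks 4 to 16 against week 0. In DKO weeks 12 and 16 against weeks 4 and 8, where 0.628% of all genes were called, the macrophage marker C1qa rose by 1.04 ± 0.20 (limma, adjusted p = 0.0214). S100a8 and S100a9 rose there by 3.99 and 3.93 (limma, adjusted p = 0.00515 and 0.0247). The part of any of these cells in the Krt1 and Krt10 levels was not tested.

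The genes with the patterns nearest to Krt1 over all 30 arrays, by Pearson correlation, were Krt10 (0.97), Serpinb3d (0.96), S100a8 (0.96), Defb4 (0.95) and Sprr2d (0.95). For Krt10 they were Krt1 (0.97), Lce1a1 (0.93), Defb4 (0.93), Serpinb3d (0.93) and Sprr2d (0.92). These are squamous serpin, defensin and cornified envelope genes besides the calprotectin subunit. The correlations are descriptions over arrays that share the genotype groups and the ranges described above, and Krt1 and Krt10 were chosen for the same arrays. Krt2 and Krt77 correlated with Krt1 at 0.69 and 0.64, in places 1786 and 2964 of the order of likeness.

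Over the 20 Cyp1a1 KO and WT arrays the nearest genes were others. They were Cryba4 (0.90), Gpr33, C2cd4a, Spata48 and Zfp275 for Krt1, and Ntm (0.77), Lor (0.71), Adam28, Sptlc3 and Utp14b for Krt10. Lor encodes loricrin, the main protein of the cornified envelope. Krt1 and Krt10 correlated with each other at 0.14 there (permutation p = 0.567, adjusted p = 0.851; Spearman's rho 0.18).

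Of the 6 pairs of members over those 20 arrays, 3 had an adjusted p under 0.05 by two-sided permutation of Pearson's r. By permutation of Spearman's rho no pair did. The permutations shuffled arrays over both genotypes and all weeks. Krt1 with Krt2 gave r = 0.67 (rho 0.57, permutation p = 0.00099, adjusted p = 0.00594). Krt1 with Krt77 gave r = 0.61 (rho 0.44, permutation p = 0.00412, adjusted p = 0.0124), and Krt2 with Krt77 gave r = 0.86 (rho 0.23, permutation p = 0.0131, adjusted p = 0.0262). These p values are those of r. For rho the adjusted permutation p values of the 3 pairs were 0.0569, 0.152 and 0.494. Without the 2 arrays farthest from the median of the first gene the 3 r values were 0.44, 0.33 and 0.08. Without the low-range array of Cyp1a1 KO week 12 they were 0.49 (rho 0.50, permutation p = 0.0348, adjusted p = 0.209), 0.33 and 0.16. Within the 10 Cyp1a1 KO arrays they were 0.74, 0.71 and 0.92, and within the 10 WT arrays 0.34, -0.23 and -0.63, with no adjusted permutation p under 0.05 in either genotype. The r of Krt2 with Krt77 rested on that 1 array. Krt1 with Krt2 had a rho of 0.50 without it (adjusted permutation p = 0.175) and 0.57 with it. After quantile normalization the 3 pairs gave r of 0.05, 0.05 and 0.84 and rho of -0.06, -0.24 and -0.07, with no adjusted permutation p under 0.05.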

How the data were processed

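Each array was deposited as log2 intensities of its probe sets, which the authors made with RMA, a method that corrects, normalizes and summarises probe signals, per the submitters' processing notes. RNA was amplified with the Ovation Pico WTA System, per the labels' protocols. Scanner files and the build of the probe annotation were not used here. Of 21212 probe sets, 18786 had 1 gene symbol, 6 had several and 2420 were not listed. Of the probe sets with 1 symbol, 18775 matched RefSeq by gene ID. Each gene was read from its probe set with the highest mean over the arrays, which gave 18784 genes. Values were used as deposited, with no filter on low values, and the number of arrays limits the precision. A model with 1 mean per group (15 groups of 2 mice) was fitted in limma 3.58.1 (R 4.3.3, eBayes), which left 15 residual degrees of freedom. Adjusted p values are Benjamini-Hochberg over all genes. Correlations used 100000 two-sided permutations in scipy 1.17.1. The fit was tested on simulated data. The 4 genes, the lists and the tests were chosen with earlier results of these data known. Named genes are the members, up to 4 genes of a list with the smallest p in a comparison, chromosome neighbours, the 5 genes most like Krt1 or Krt10, Cyp1a1 and Cyp1b1. Krt5, Krt14 and Krt15 were added after their values were seen. A test planned for DKO weeks 12 and 16 against weeks 4 and 8 is given without p for the members. Replicate numbers did not pair mice: over 105 pairs of groups, deviations correlated between -0.55 and 0.67, with 16 pairs above 0.1.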

Additional observations from a re-analysis of the deposited data

How the results depend on the processing

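The differences of Krt1 and Krt10 between DKO weeks 4 to 16 and week 0 stayed positive under all alternatives run. After median centring and division by each array's SD with the result scaled back to the mean SD, they were 5.53 and 4.02. Leaving out 1 array at a time gave 3.98 to 4.88 for Krt1, 2.42 to 3.32 for Krt10, -0.26 to 1.03 for Krt2 and -0.22 to 0.83 for Krt77. With the label numbers as a block, Krt2 was -0.36 and Krt77 -0.35. Fits without low-range arrays could not be made for DKO on BaP, since weeks 4, 8 and 16 would hold no array.

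In DKO weeks 12 and 16 against weeks 4 and 8, whose arrays chose the genes, no count of members called is given. With 1 array left out at a time, the difference there ran from 1.91 to 2.90 for Krt1 and from 1.09 to 1.51 for Krt10. Between Cyp1a1 KO and WT at week 0 the count of members called was 1 without low-range arrays, and 0 as reported. For Cyp1a1 KO weeks 12 and 16 against weeks 4 and 8 it was 0 as reported. Fits with 1 array left out leave 1 array in a group, so only their differences are given. The Krt2 difference in that comparison ran from 0.25 to 1.11 with 1 array left out. The causes were not tested. With the replicate block, the DKO comparison gave 2.40 for Krt1 and 1.30 for Krt10 again, and 112 genes were called in all. The count of members called changed in no tested comparison. For the DKO comparison the count of all genes called was 118 as reported and ran from 1 (only the groups compared) to 1003 (quantile normalization) over the alternatives. For Cyp1a1 KO against WT over weeks 4 to 16 it was 282, with 31 to 2185. For DKO weeks 4 to 16 against week 0 it was 183, with 2 (array weights) to 1508 (without DKO week 0 replicate 2).

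Some differences and correlations changed sign, and the differences among Cyp1a1 KO and WT arrays that did so were small and not called. Leaving out 1 array gave, for Krt10, -0.40 to 0.76 in Cyp1a1 KO against WT at week 0, -0.010 to 0.16 over weeks 4 to 16, -0.69 to 0.48 in the Cyp1a1 KO change minus the WT change, -0.17 to 0.043 in late against early Cyp1a1 KO weeks, -0.10 to 0.0071 in Cyp1a1 KO weeks 4 to 16 against week 0, -0.20 to 0.14 in late against early WT weeks and -0.52 to 0.64 in WT weeks 4 to 16 against week 0. It gave -0.063 to 0.18 for Krt1 in late against early WT weeks. It gave -0.36 to 0.074 for Krt2 in the Cyp1a1 KO change minus the WT change, and -0.15 to 0.28 for Krt2 and -0.079 to 0.31 for Krt77 in Cyp1a1 KO weeks 4 to 16 against week 0. Without low-range arrays these last differences were -0.15 and -0.079, and with the number block -0.13 and -0.047, where Krt10 was 0.010. With the number block Krt10 was 0.049 in late against early Cyp1a1 KO weeks. Krt2 was -0.43 with that block in DKO against Cyp1a1 KO over weeks 4 to 16, where it was 0.88 as reported. Quantile normalization gave -0.20 for Krt77 in Cyp1a1 KO against WT at week 0, 0.12 for Krt2 in the Cyp1a1 KO change minus the WT change, and for Krt10 0.27 in late against early Cyp1a1 KO weeks and 0.0061 in WT. Division by the SD gave -0.078, 0.042 and 0.090 for the first 3 of these. Median centring gave -0.027 for Krt10 in WT weeks 4 to 16 against week 0. Among correlations, Krt1 with Krt77 was -0.23 and Krt2 with Krt77 -0.63 within WT. Krt10 with Krt77 was -0.020 within Cyp1a1 KO and -0.0079 without the 2 farthest arrays, and Krt10 with Krt2 was 0.35 after quantile normalization.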
